A study of Mus musculus with 12 samples.

Results

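Collagens and laminins are the main structural proteins of the extracellular matrix, and their genes were described across the dorsal hippocampus libraries of Mbnl2 knockout (KO) and wild-type (WT) mice. The set was chosen with earlier results of these data known. Its genes were taken by symbol alone, as every Col gene with a collagen chain number and every Lama, Lamb or Lamc gene in the count files. This gave 55 of 24421 genes, 44 collagens and 11 laminins, of which 52 had enough counts to be tested among 15622 genes. Col10a1, Col24a1 and Col28a1 had too few.

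Collagen chains wind around each other into rod-shaped helices, and their assembly sorts them into classes. Fibrillar collagens form the tension-bearing fibrils of connective tissue, fibril-associated collagens coat those fibrils, and type IV collagen forms the sheet-like network of basement membranes. Laminins are cross-shaped molecules of an alpha, a beta and a gamma chain that lay down the other network of the same membranes, which in brain surround blood vessels and line the pia and the choroid plexus. Brain tissue itself holds little fibrillar collagen, most of which is made by fibroblasts of the meninges and of larger vessels.

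The tissue was dorsal hippocampus of male mice, 129sv/C57BL/6j, aged 4 to 5 months, and polyadenylated RNA was sequenced. The protein made from Mbnl2 binds RNA and regulates splicing in brain. The 12 libraries fell into 4 groups of 3: Mbnl2 KO after training, Mbnl2 KO house controls, Mbnl2 WT after training and Mbnl2 WT house controls. The labels describe neither the training nor the targeted allele, and the groups allow comparisons of genotype, of training and of their combination. Replicates are numbered by order of deposit, and each number names a library within its group only.

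The libraries held 19737929 to 27427076 counts, and levels are given in CPM, the counts of a library scaled to its size. The limit that 0 counts allow, taken as 3 counts, lay between 0.109 and 0.152 CPM by library and covers counting error only. The gene-level count of Mbnl2 was higher in the libraries labelled KO (454 to 542 CPM) than in those labelled WT (315 to 365 CPM). It sums reads over all exons and checks the labels only if the allele lowers it, which the labels do not say, and every direction below is that of the labels. Markers of CA1 pyramidal neurons and of dentate granule neurons were detected in all libraries, at sums of 334 to 876 CPM and of 327 to 1260 CPM. Library titles carry numbers in a lower run (replicates 1 and 2 of each group) and a higher run (replicate 3), and the labels do not say what the runs are.

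Libraries stood apart in tissue makeup before any comparison. The 17 choroid plexus epithelium markers summed to 237 to 6753 CPM in KO-labelled trained mice and 538 to 4420 CPM in KO-labelled house controls, against 162 to 11856 CPM in WT trained mice and 285 to 22890 CPM in WT house controls. The 17 leptomeningeal fibroblast markers summed to 456 to 895 CPM and 393 to 916 CPM in the KO-labelled trained and house control mice, and to 300 to 1623 CPM and 1605 to 2460 CPM in the WT trained and house control mice. Each of these genes had counts in some library. WT trained replicate 2 had the lowest sum of both lists and WT house control replicate 3 the highest. KO-labelled trained replicate 2, KO-labelled house control replicate 2 and WT house control replicate 3 had the highest sums of 8 striatum and septum markers (1143, 850 and 845 CPM), against 100 to 341 CPM in the other 9 libraries. In bulk tissue, fewer cells of a type and less RNA per cell cannot be told apart.

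Several of these genes lie head to head. Col4a1 and Col4a2 start 21 bases apart on opposite strands of chromosome 8, Col4a3 and Col4a4 start 72 bases apart on chromosome 1, and Col4a5 and Col4a6 start 1309 bases apart on the X chromosome. The start regions of Col4a2 and Col4a4 are shown because each covers or adjoins the starts of both genes of a pair whose levels are compared below, and those of Col8a1 and Col8a2 because these genes sit on chromosomes 16 and 4, share no start region and had the widest ranges across libraries. Each window runs from 250 bases before to 50 after the RefSeq gene start on GRCm38.p6, in the direction of transcription: chr8:11312555-11312854 (+) for Col4a2, chr1:82586800-82587099 (-) for Col4a4, chr16:57754688-57754987 (-) for Col8a1 and chr4:126286544-126286843 (+) for Col8a2. Capitals mark a CCAAT box (CCAAT or ATTGG), a GC box (GGGCGG or CCGCCC) or TATAAA (or TTTATA).
Col4a2: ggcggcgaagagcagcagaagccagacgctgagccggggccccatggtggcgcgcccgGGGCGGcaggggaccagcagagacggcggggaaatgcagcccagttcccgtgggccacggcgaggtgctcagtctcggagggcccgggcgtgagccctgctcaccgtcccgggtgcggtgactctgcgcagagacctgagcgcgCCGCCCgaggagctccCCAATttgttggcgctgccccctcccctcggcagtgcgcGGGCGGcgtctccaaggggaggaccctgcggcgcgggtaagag
Col4a4: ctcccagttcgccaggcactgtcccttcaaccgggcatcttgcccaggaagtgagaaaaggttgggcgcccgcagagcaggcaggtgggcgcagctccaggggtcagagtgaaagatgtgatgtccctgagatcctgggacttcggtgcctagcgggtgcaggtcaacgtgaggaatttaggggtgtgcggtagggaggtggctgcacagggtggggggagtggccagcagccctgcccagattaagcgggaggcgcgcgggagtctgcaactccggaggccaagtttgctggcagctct
Col8a1: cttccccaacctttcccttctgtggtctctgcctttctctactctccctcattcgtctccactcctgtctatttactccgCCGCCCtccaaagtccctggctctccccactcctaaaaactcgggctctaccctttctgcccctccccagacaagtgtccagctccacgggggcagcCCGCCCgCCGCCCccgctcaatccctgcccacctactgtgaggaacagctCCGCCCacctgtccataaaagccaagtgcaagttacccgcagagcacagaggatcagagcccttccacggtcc
Col8a2: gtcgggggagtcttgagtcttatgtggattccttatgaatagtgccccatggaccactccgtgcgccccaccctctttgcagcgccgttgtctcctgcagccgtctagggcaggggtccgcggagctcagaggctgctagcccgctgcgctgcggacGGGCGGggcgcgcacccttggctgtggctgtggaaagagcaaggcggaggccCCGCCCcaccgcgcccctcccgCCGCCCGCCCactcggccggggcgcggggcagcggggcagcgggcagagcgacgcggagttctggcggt
The Col4a2 window held 1 CCAAT box and 3 GC boxes, and overlapped the Col4a1 window by 78 bases. The Col8a1 window held 4 GC boxes, as did the Col8a2 window, where 2 of them overlap. None of the 3 motifs was in the Col4a4 window. RefSeq windows were found for 40 of the 55 genes (44 windows). A GC box was in 59.1% of them, against 35.7% of all 32851 windows of the same length, a CCAAT box in 31.8% against 37.4%, and TATAAA in 11.4% against 13.6%. A match is a description of the letters and not of a binding site.

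The most abundant transcripts per length were not those of the classical fibrils. Per kilobase of annotated exon, the highest mean levels over 12 libraries were those of Col9a3 (14.5 CPM per kilobase), a chain of the fibril-associated type IX collagen, and Col25a1 (13.3), the transmembrane collagen whose shed form is found in amyloid plaques. Next came the chains of the common basement membrane laminins and of its type IV collagen, with Lamb1 at 11.002, Lamb2 at 8.15, Col4a1 at 7.73, Col4a2 at 7.70 and Lamc1 at 7.66 CPM per kilobase. Lamb2, Col4a1, Col4a2 and Lamc1 had library ranges that overlap. Col9a3, at 2.54 to 45.5 CPM per kilobase, Col25a1, at 7.67 to 17.1, and Lamb1, at 7.44 to 13.3, overlapped each other and these 4. The order given is that of the means only. Col8a2 (5.21) and Col8a1 (4.21), the short-chain network collagens of Descemet's membrane in the eye, and Col11a2 (4.51), a cartilage fibril chain, followed. Col19a1 was at 4.26 and Col6a1 at 4.18 CPM per kilobase. The fibrillar chains had a median of 0.793 CPM per kilobase over 11 genes, and the alpha laminins 0.785 over 5. Among alpha chains Lama2, the laminin chain deficient in a congenital muscular dystrophy, was highest (2.54). Col26a1, which fits none of these classes, had 0.657 and Col7a1, the anchoring fibril collagen of skin, 0.110 CPM per kilobase.

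**Figure D1:**
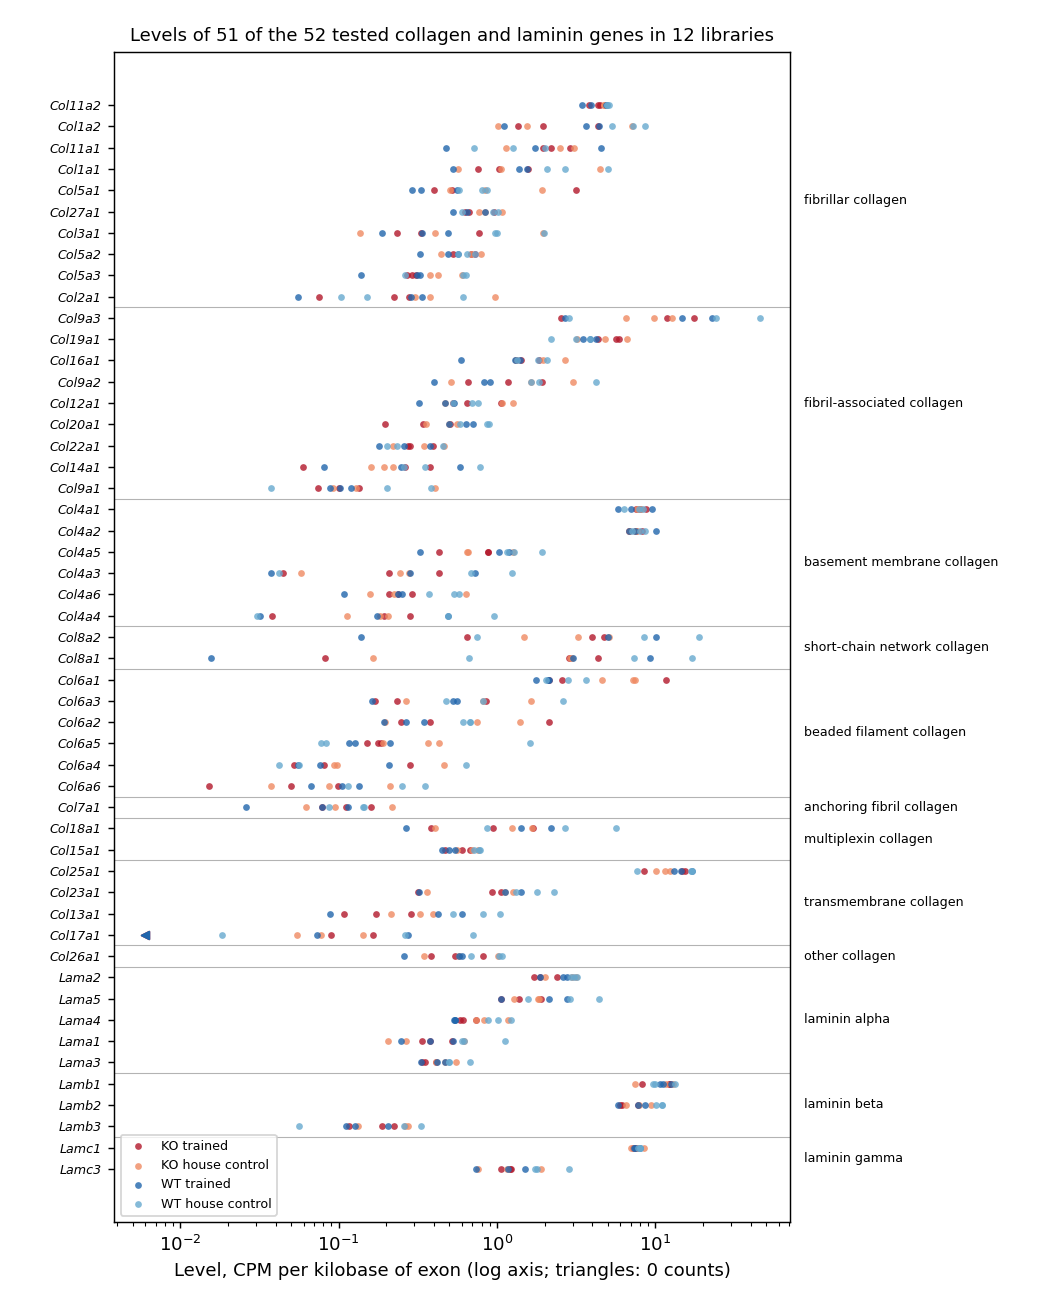
Level of 51 of the 52 tested genes in each of 12 libraries, as CPM per kilobase of exon on a log axis, with genes grouped by structural class and 1 point per library coloured by group. Lamc1, Col4a1 and Col4a2 form tight rows, and Col8a1 spreads over 3 orders of magnitude, from 0.0803 to 86.7 CPM before scaling by length. The lowest Col8a1 value is 2 counts in WT trained replicate 2, under the limit of 3 counts, so its span is uncertain at that end.

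The spread between libraries sorted the genes. In 8 of 52 the highest library was less than 2-fold above the lowest: Lamc1 (1.21-fold), Col11a2 (1.47), Col4a2 (1.48), Col4a1 (1.63), Col15a1 (1.74), Lamb1 (1.78), Lama2 (1.89) and Lamb2 (1.89). In 24 it was 2-fold to 10-fold, and 20 ranged over at least 10-fold or were at 0 counts in a library. Lamc1, the gamma chain of most basement membrane laminins, had 57.9, 54.8 and 57.7 CPM in KO-labelled trained mice and 58.7, 53.2 and 64.2 CPM in KO-labelled house controls, against 56.6, 56.01 and 60.9 CPM in WT trained mice and 61.04, 59.1 and 60.8 CPM in WT house controls. The values of the other 3 groups all lay within the range of the KO-labelled house controls, and those of KO-labelled trained mice lay below those of WT house controls. Col4a1 and Col4a2, which form the type IV collagen of nearly all basement membranes, kept a ratio per length of 0.860 to 1.27 in the 12 libraries.

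The type VIII chains and Col9a3 varied widely between libraries of the same group. Col8a1 had 0.421, 22.04 and 14.6 CPM in KO-labelled trained mice and 14.8, 0.838 and 15.2 CPM in KO-labelled house controls, against 15.5, 0.0803 and 47.4 CPM in WT trained mice and 3.39, 37.2 and 86.7 CPM in WT house controls. Col8a2 had 2.79, 20.5 and 17.1 CPM in KO-labelled trained mice and 14.1, 6.44 and 22.1 CPM in KO-labelled house controls, against 21.7, 0.602 and 43.9 CPM in WT trained mice and 3.24, 36.5 and 81.8 CPM in WT house controls. The low libraries were the same for both, KO-labelled trained replicate 1, KO-labelled house control replicate 2, WT trained replicate 2 and WT house control replicate 1, and so were the high ones, WT house control replicates 2 and 3 and WT trained replicate 3. Those 4 low libraries had choroid plexus marker sums of 162 to 538 CPM, and the 3 high libraries 11529 to 22890 CPM. The part of choroid plexus tissue in these levels was not tested. Col9a3 had 7.73, 53.5 and 35.9 CPM in KO-labelled trained mice and 29.7, 19.8 and 38.7 CPM in KO-labelled house controls, against 45.03, 8.19 and 69.1 CPM in WT trained mice and 8.64, 73.8 and 139 CPM in WT house controls. Its 3 highest libraries were again WT house control replicates 2 and 3 and WT trained replicate 3.

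Col4a3 and Col4a4, chains of the type IV collagen of kidney glomeruli, ranged 33.0-fold and 31.2-fold, and their ratio per length stayed at 0.512 to 1.62. Col4a3 was highest in WT house control replicate 3 (10.6 CPM) and lowest in WT trained replicate 2 (0.321 CPM). Col4a5 and Col4a6, the X-linked chains, ranged 5.92-fold and 5.88-fold with a ratio of 1.81 to 5.01. Col18a1, the multiplexin collagen that releases endostatin, ranged 21.2-fold, with WT house control replicate 3 highest at 38.3 CPM. Pairs on 1 chromosome did not all keep a ratio: Col6a1 and Col6a2, chains of the beaded filaments of type VI collagen, varied from 3.34 to 23.5 per length. The ratio of Col8a1 to Col8a2 varied too, from 0.110 in KO-labelled house control replicate 2 to 0.915 in WT trained replicate 3 (median 0.794).

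**Figure D2:**
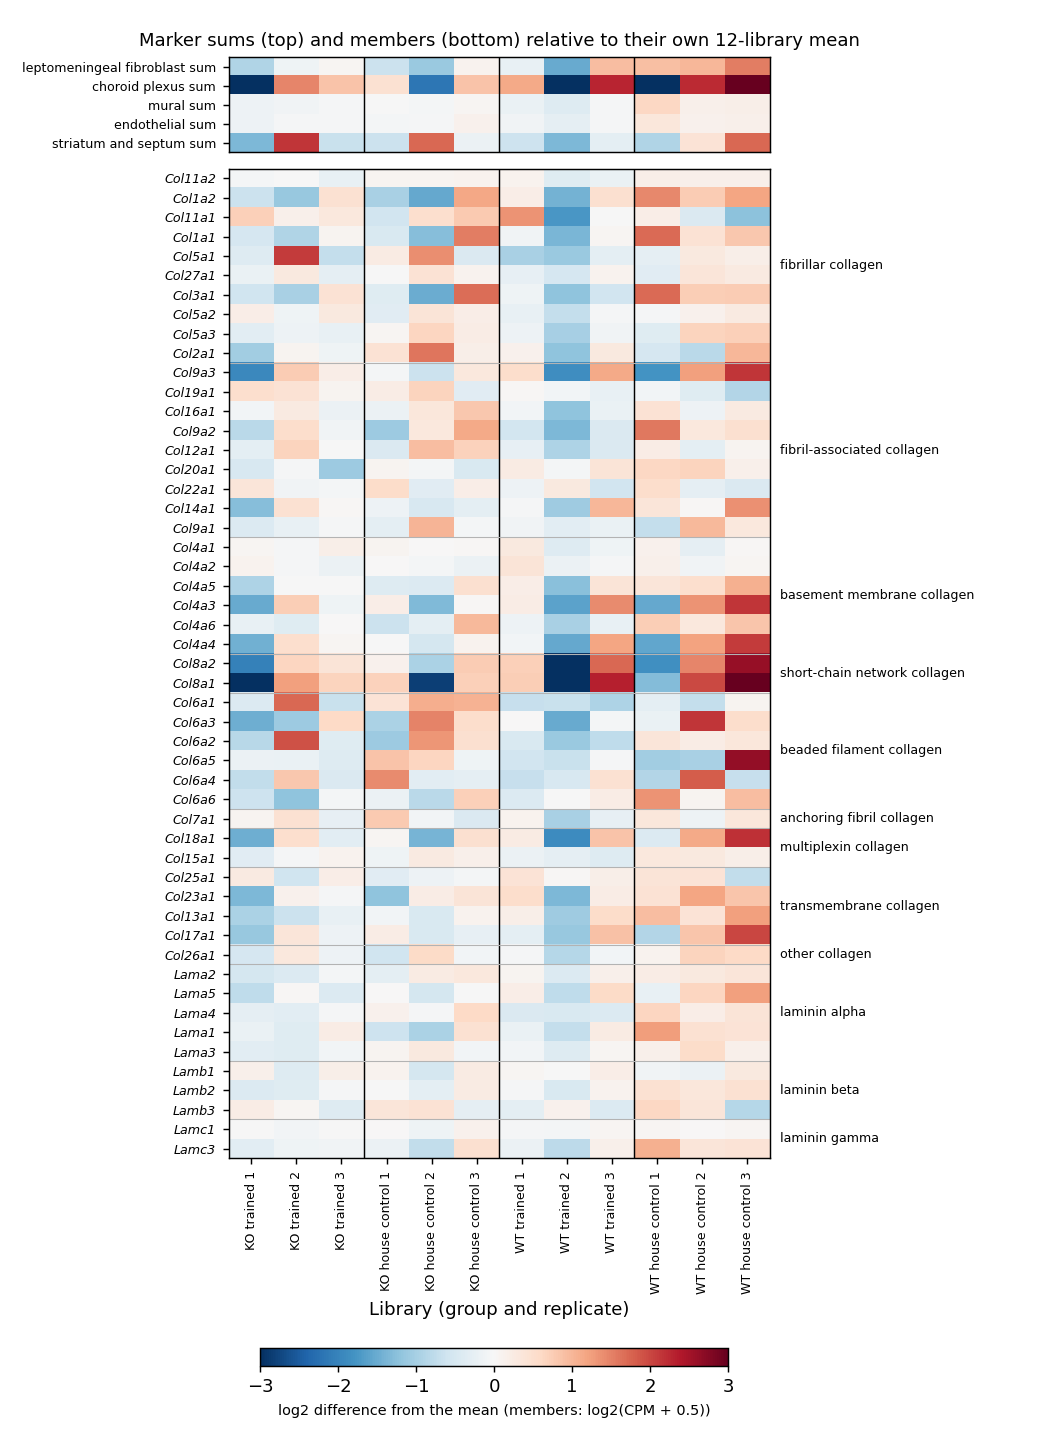
Colour gives the log2 difference of each library from the 12-library mean, for 5 marker sums (top) and for log2(CPM + 0.5) of 51 of the 52 tested genes (bottom), in columns by group, with the scale ending at -3 and 3. Col8a1, Col8a2, Col9a3, Col4a3, Col4a4 and Col18a1 are low and high in much the same libraries as the choroid plexus sum, and the column of WT trained replicate 2 is the lowest for 29 of 52 genes.

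Single libraries held many of the extremes. WT trained replicate 2 had the lowest value of 29 of the 52 genes, among them Col1a1, Lama5, Lamb2 and Lamc3, and it also had the lowest sums of mural (172 CPM) and endothelial (329 CPM) markers. WT house control replicate 3 had the highest value of 16, including Col8a1, Col8a2, Col9a3, Col4a3, Col4a4, Col18a1 and Lama5, and WT house control replicate 1 the highest of 11, including Col1a1, Col1a2, Col3a1, Lama1, Lama4 and Lamc3. KO-labelled trained replicate 2 had the highest of 3, Col5a1, Col6a1 and Col6a2. Over all 55 genes the summed level ran from 483 CPM in WT trained replicate 2 to 1089 CPM in WT house control replicate 3.

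**Figure D3:**
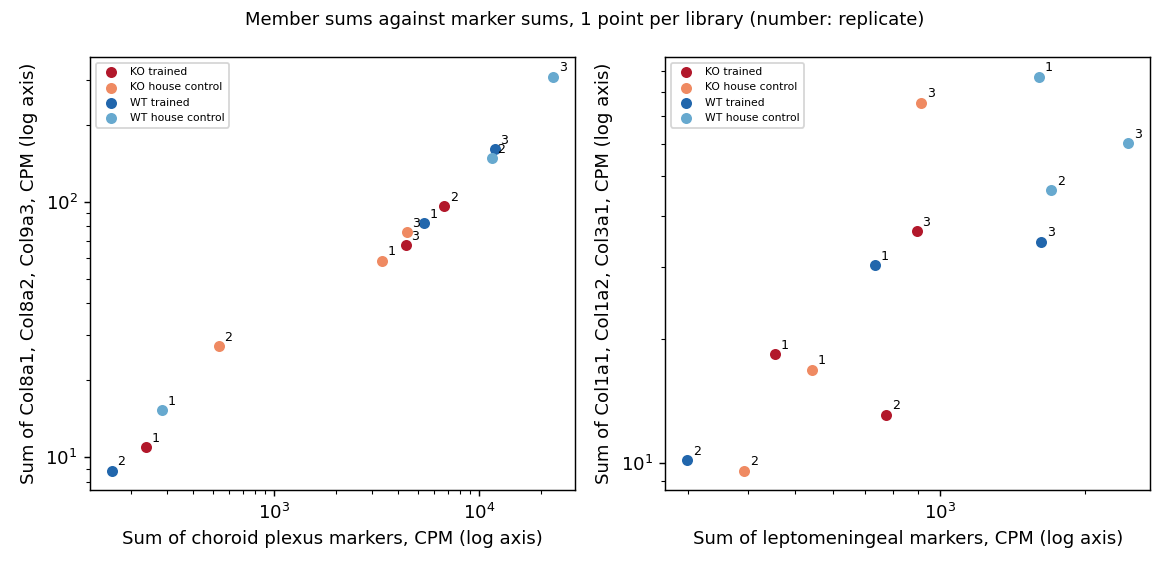
Each point is a library, with its replicate number, coloured by group, on log axes of CPM. Left: the sum of Col8a1, Col8a2 and Col9a3 against the sum of 17 choroid plexus markers, where the highest point is WT house control replicate 3 and the lowest WT trained replicate 2. Right: the sum of Col1a1, Col1a2 and Col3a1 against the sum of 17 leptomeningeal markers, a looser relation in which KO-labelled house control replicate 3 and WT house control replicate 1 lie high. The libraries on both axes are the same, so the picture is a description and carries no test.

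Averaged over both treatments, 0 of the 52 genes passed edgeR's threshold between the genotypes, where 0.576% of all genes did. Their median log2 fold change was -0.13, with 20 positive and 32 negative, beside a median of -0.01 over all genes and 52% negative. An unadjusted p under 0.05 was reached by 9 of 52 (5 higher and 4 lower in KO-labelled mice), where the background was 14.4%. Leaving out 1 library moved this median to between -0.24 (without WT trained replicate 2) and -0.03 (without WT trained replicate 1), with -0.047 without KO-labelled house control replicate 1, -0.054 without WT trained replicate 3 and -0.074 without KO-labelled trained replicate 1. It was above 0 with the leptomeningeal marker mean (0.11) or the choroid plexus marker mean (0.014) as a term and without the 3 libraries richest in choroid plexus markers (0.039). All 3 of those libraries are WT, and without them WT house control replicate 1 is alone in its group, here and below. The leptomeningeal marker mean was 4.97 to 5.12 in WT house controls and 2.88 to 4.68 in all other libraries (log2 scale). A term of it therefore cannot be fully told apart from that group, here and below. Within replicates 1 and 2 alone the median was -0.10, and the higher run of title numbers has 1 library per group and gives no test. Beside them 15 of 17 leptomeningeal markers (median -0.91) and 17 of 17 choroid plexus markers (median -1.36) were lower in KO-labelled mice and 7 of 8 striatum and septum markers higher (median 1.12). Also lower were 8 of 8 dentate granule (-0.57), 7 of 8 thalamus (-0.62), 8 of 11 mural (-0.20) and 8 of 12 endothelial markers (-0.11), and 7 of 7 CA1 pyramidal markers were higher (0.57). None of these markers was called, and their part in these values was not tested. Col20a1, Col6a1, Col19a1 and Col13a1 were among the 5 with the smallest p, and each is given with its values.

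Col20a1 (chromosome 2, 180986535 to 181018363, mm10), a fibril-associated collagen, had lower means in KO-labelled mice at each treatment. Col20a1 had 1.76, 2.58 and 1.00 CPM in KO-labelled trained mice and 2.89, 2.55 and 1.83 CPM in KO-labelled house controls, against 3.27, 2.57 and 3.64 CPM in WT trained mice and 4.42, 4.56 and 3.02 CPM in WT house controls. The highest KO-labelled house control library lay below the lowest WT one, and in trained mice the groups met at 2.58 and 2.57 CPM. The log2 fold change was -0.77 (SE 0.23, 1.71-fold lower in KO-labelled mice, adjusted p = 0.166 by the quasi-likelihood test of edgeR after Benjamini-Hochberg adjustment). DESeq2 called it at -0.77 (adjusted p = 0.0353), where it called 5.04% of all genes. Without KO-labelled trained replicate 2 the edgeR value was -0.94, and without replicate 3 it was -0.62.

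Col6a1 (chromosome 10, 76708792 to 76726168), the alpha-1 chain of type VI collagen, was high in part of the KO-labelled libraries. Col6a1 had 10.5, 48.1 and 8.68 CPM in KO-labelled trained mice and 18.8, 30.5 and 29.7 CPM in KO-labelled house controls, against 8.62, 8.75 and 7.24 CPM in WT trained mice and 11.5, 8.38 and 14.95 CPM in WT house controls. All 3 KO-labelled house controls lay above all 3 WT house controls, while in trained mice KO-labelled replicate 2 alone was far above the rest. The mean genotype value was 1.32 (SE 0.39, 2.49-fold higher in KO-labelled mice, edgeR adjusted p = 0.166), and DESeq2 called it (1.31, adjusted p = 0.0150). Without KO-labelled trained replicate 2 it was 0.71 (1.32 with it), and without replicate 2 of both KO-labelled groups, which are rich in striatum and septum markers, 0.65 (SE 0.18, edgeR adjusted p = 0.178). The authors' deposited table calls Col6a1 higher in KO house controls (log2 fold change 1.18, SE 0.30, adjusted p = 0.0201). In that comparison it calls 0.558% of its genes, higher and lower together.

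Col6a2, which pairs with Col6a1 in the same filaments, followed the same libraries in part. Col6a2 had 1.49, 12.9 and 2.28 CPM in KO-labelled trained mice and 1.17, 8.38 and 4.49 CPM in KO-labelled house controls, against 2.08, 1.16 and 1.61 CPM in WT trained mice and 4.06, 3.68 and 4.05 CPM in WT house controls. Its mean genotype value of 1.01 (SE 0.56) became -0.12 without replicate 2 of both KO-labelled groups. Col5a1, a fibril-diameter regulator and chain of type V collagen, was at 26.6 CPM in KO-labelled trained replicate 2 and at 16.2 CPM in KO-labelled house control replicate 2, against 2.45 to 7.29 CPM in the 6 WT libraries. The other 4 KO-labelled libraries, at 3.38 to 7.03 CPM, lay within the WT range. In trained mice its log2 fold change was 1.79 (SE 0.76, edgeR adjusted p = 0.755), and 0.24 without KO-labelled trained replicate 2. The part of striatum and septum tissue in these values was not tested.

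Col19a1, a fibril-associated collagen made in mouse hippocampus by interneurons, had higher values in KO-labelled mice. Col19a1 had 26.1, 24.8 and 19.3 CPM in KO-labelled trained mice and 21.3, 29.2 and 14.1 CPM in KO-labelled house controls, against 18.6, 17.1 and 15.5 CPM in WT trained mice and 17.02, 14.02 and 9.67 CPM in WT house controls. The trained groups did not overlap and the house control groups did. Its mean genotype value was 0.56 (SE 0.18, edgeR adjusted p = 0.199), and within replicates 1 and 2 it was 0.61 (SE 0.13). The 8 interneuron markers had a median of 0.09, with 5 of 8 positive. Col13a1, a transmembrane collagen of the neuromuscular junction, was lower in KO-labelled mice at -1.17 (SE 0.42, edgeR adjusted p = 0.235), from low levels of 0.344 to 1.25 CPM in KO-labelled and 0.281 to 3.35 CPM in WT libraries.

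**Figure D4:**
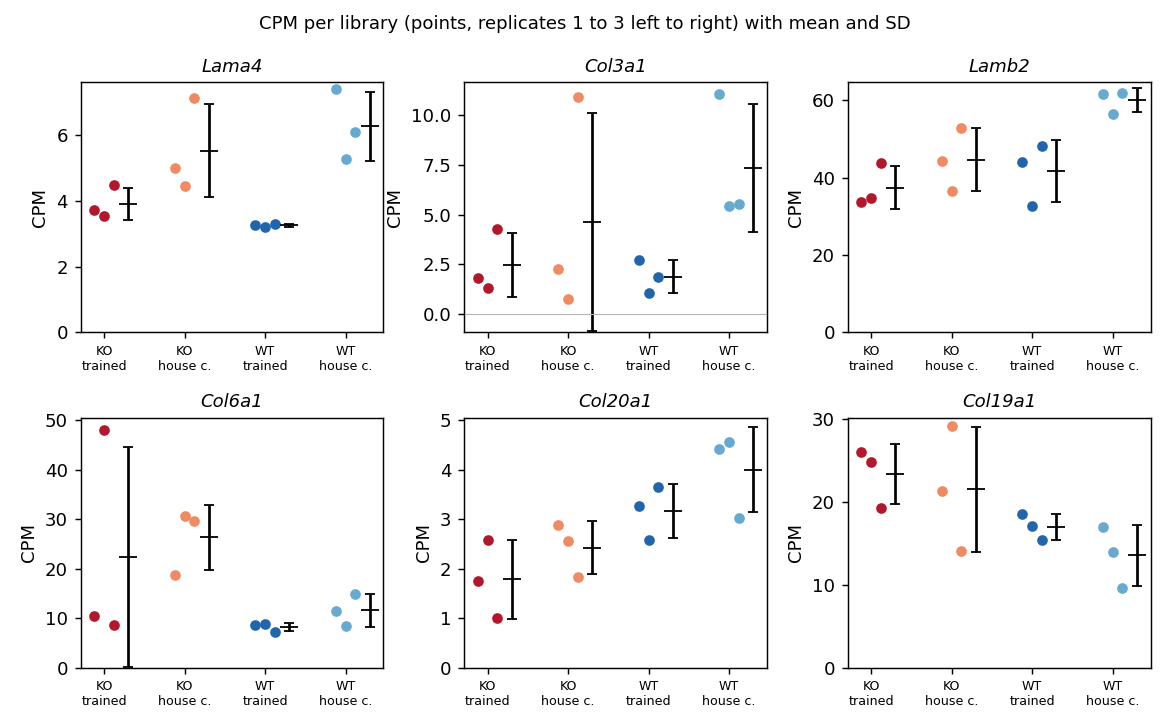
CPM of Lama4, Col3a1, Lamb2, Col6a1, Col20a1 and Col19a1 in each library, with the mean and SD of each group of 3 beside the points. Lama4 in WT trained mice sits at 3.21 to 3.29 CPM below all WT house controls, and the highest point of Col6a1 is KO-labelled trained replicate 2 at 48.1 CPM.

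In house controls, 0 of 52 genes passed between KO-labelled and WT mice by edgeR, against 0.0128% of all genes, and 5 had an unadjusted p under 0.05 (background 10.7%). DESeq2 called 0 of the 30 to which it gave an adjusted p, and 1.69% of all genes. The authors' deposited table called 1 of the 47 with an adjusted p, Col6a1 (higher), and 0.558% of its genes. Negative values were more frequent than over all genes, with 38 of 52 below 0 and a median of -0.25, where 50.2% of all genes were below 0 and their median was -0.00. Groups did not overlap for 6 genes lower in KO-labelled mice (Col11a2, Col13a1, Col14a1, Col20a1, Col23a1 and Lamb2; background 6.09%) and for Col6a1 higher (background 6.94%). The median was -0.30 within replicates 1 and 2 and -0.39 when WT house control replicate 3 was left out. It was -0.056 without the 3 libraries richest in choroid plexus markers, which leaves WT house control replicate 1 alone in its group. With the mean of the leptomeningeal markers as a term it was 0.14, with 17 of 52 below 0. Of the leptomeningeal markers themselves 16 of 17 were lower in KO-labelled house controls (median -1.65) and of the choroid plexus markers 17 of 17 (median -1.93), as were 11 of 12 endothelial (-0.33), 9 of 11 mural (-0.48) and 8 of 8 thalamus markers (-0.53), none of them called. Their part in the lower collagen and laminin values was not tested.

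Lamb2 (chromosome 9, 108479736 to 108490530), the beta chain found at synapses and in vessel walls, had the smallest p in house controls. Lamb2 had 33.7, 34.7 and 43.8 CPM in KO-labelled trained mice and 44.2, 36.6 and 52.9 CPM in KO-labelled house controls, against 43.9, 32.8 and 48.3 CPM in WT trained mice and 61.6, 56.4 and 61.8 CPM in WT house controls. KO-labelled house controls all lay below WT house controls, and the fitted value was -0.43 (SE 0.17, edgeR adjusted p = 0.416). Endothelial markers summed to 385 to 438 CPM in KO-labelled house controls and 434 to 505 CPM in WT house controls, and mural markers to 217 to 233 CPM in KO-labelled house controls and 250 to 347 CPM in WT house controls, and their part in the Lamb2 value was not tested. Lama1, the alpha chain of the laminin of the pial membrane, was 2.15-fold lower (-1.10, SE 0.44, edgeR adjusted p = 0.429), with 2.55, 1.94 and 5.93 CPM in KO-labelled house controls against 10.7, 5.92 and 5.74 CPM in WT house controls. KO-labelled house control replicate 3 lay among the WT values. Both type VIII chains were lower by more, Col8a1 at -2.06 (SE 1.60), and Col8a2 at -1.52 (SE 1.24), with unadjusted p of 0.227 and 0.249 by edgeR.

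In trained mice the genotypes were evenly split, with 26 of 52 positive (47.6% of all genes), 26 negative and a median of 0.02, and again 0 called (0.0128% of all genes). The groups did not overlap for 3 genes, Col19a1 and Lama4 among them, all higher in KO-labelled mice (background 7.61%), and for 0 genes lower (background 6.38%). An unadjusted p under 0.05 was reached by 3, Col6a1, Col20a1 and Col5a1 (background 6.45%). Col12a1, a fibril-associated collagen that binds type I fibrils, was at 0.74 (SE 0.37). DESeq2 called 0 of 48 (0.752% of all genes), and 0 were called in the authors' deposited table (0.834% of its genes). Within replicates 1 and 2 the median was 0.18, and leaving out 1 library gave -0.14 (without WT trained replicate 2) to 0.27 (without WT trained replicate 3). Beside them 17 of 17 choroid plexus markers (-0.66) and 14 of 17 leptomeningeal markers (-0.15) were lower in KO-labelled trained mice and 7 of 8 striatum and septum markers higher (1.89), none of them called, and their part was not tested. All 4 transmembrane collagens were below 0, at -0.98 to -0.21.

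Training in WT mice gave one-sided values. There 47 of 52 genes were lower after training, with a median log2 fold change of -0.82, while 51.7% of all genes were below 0 and their median was -0.01. By edgeR 0 of 52 passed, as did 0% of all genes. DESeq2 called Lama4 alone among the 42 to which it gave an adjusted p, and 0.121% of all genes. The authors' deposited table called 3 of the 51 with an adjusted p, all lower (Lama4, Col3a1 and Col6a2), and 0.117% of its genes. An unadjusted p under 0.05 was reached by 11 of 52, all lower, where the background was 5.04% lower. The groups did not overlap for 17 of 52, all lower (background 7.8%).

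**Figure D5:**
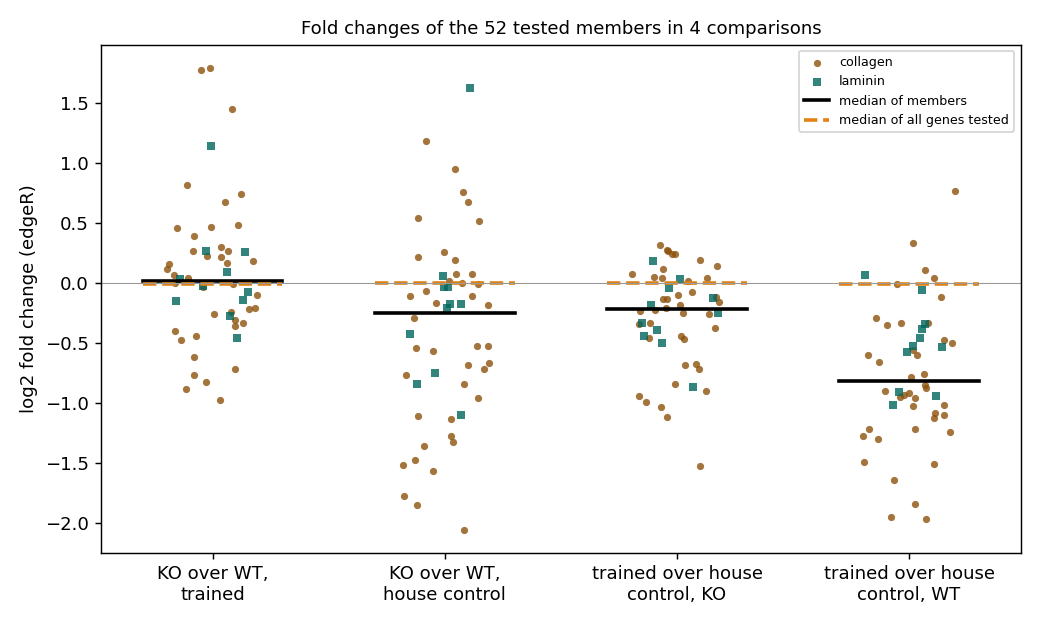
Log2 fold changes by edgeR of the 52 tested genes in 4 comparisons, with 41 collagens as circles and 11 laminins as squares; solid bars are their medians and dashed bars the medians of all 15622 genes. The points of trained over house control in WT mice lie mostly below 0 (median -0.82), and those of KO over WT in trained mice are centred near 0.

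Lama4 (chromosome 10, 38965515 to 39110188), the alpha chain of endothelial basement membranes, had the smallest p of the whole group. Lama4 had 3.71, 3.55 and 4.47 CPM in KO-labelled trained mice and 5.02, 4.46 and 7.14 CPM in KO-labelled house controls, against 3.27, 3.21 and 3.29 CPM in WT trained mice and 7.40, 5.29 and 6.11 CPM in WT house controls. All 3 WT trained libraries lay below all WT house controls, and KO-labelled trained replicate 3 reached the lowest KO-labelled house control. In WT mice it averaged 3.26 ± 0.0420 CPM after training and 6.27 ± 1.06 CPM in house controls (SD, n = 3 each), 1.92-fold lower (log2 fold change -0.94, SE 0.20, edgeR adjusted p = 0.502). DESeq2 called it at -0.94 (SE 0.23, adjusted p = 0.0450), where it called 0.121% of genes. The authors' deposited table also calls it (-0.94, SE 0.23, adjusted p = 0.0479), with 0.117% of its genes called. Averaged over both genotypes it was -0.72 (SE 0.14, edgeR adjusted p = 0.379; DESeq2 -0.71, adjusted p = 0.00744, 0.442% of genes called). In KO-labelled mice it was -0.50 (SE 0.20), and the interaction of 0.44 (SE 0.29) had an unadjusted p of 0.15 by edgeR.

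The Lama4 value in WT mice was -0.80 to -1.05 with any 1 library left out, -0.96 within replicates 1 and 2 and -1.19 without the 3 libraries richest in choroid plexus markers. In that last setting the only WT house control was replicate 1, the library with the highest Lama4 level (7.40 CPM). With the leptomeningeal marker mean as a term the Lama4 value was -0.65 (SE 0.23). Endothelial markers summed to 329 to 391 CPM in WT trained mice and 434 to 505 CPM in WT house controls, and 12 of 12 were lower (median -0.46). Mural markers summed to 172 to 220 CPM in WT trained mice and 250 to 347 CPM in WT house controls, with 11 of 11 lower (median -0.62). None of these markers was called, and their part in the Lama4 value was not tested.

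Several other laminin chains and Col15a1 had negative values too. Lamb2 was at -0.53 (SE 0.17), Lama1 at -1.02 (SE 0.44), Lama2, of astrocyte and muscle membranes, at -0.34 (SE 0.20), Lama3 at -0.46 (SE 0.19) and Lamc3, a gamma chain of retinal and cortical membranes, at -0.91 (SE 0.34), each with WT groups that did not overlap. Col15a1, the multiplexin collagen of vessel and muscle membranes, had 3.27, 3.01 and 2.72 CPM in WT trained mice against 4.73, 4.66 and 4.30 CPM in WT house controls (-0.60, SE 0.18). Lamb1, Lamc1, Col4a1 and Col4a2 did not share this, at 0.07, -0.06, -0.01 and 0.04, with SEs of 0.0734 to 0.216. Lamb1 and Lamc1 are the partners of most alpha chains, and Col4a1 with Col4a2 the common type IV collagen.

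The fibrillar chains of fibroblasts lay low in WT trained mice as well. Col3a1 (chromosome 1, 45311538 to 45349706), the type III collagen of extensible tissues, had the lowest fitted value among the fibrillar collagens. Col3a1 had 1.84, 1.29 and 4.29 CPM in KO-labelled trained mice and 2.26, 0.762 and 10.9 CPM in KO-labelled house controls, against 2.74, 1.04 and 1.88 CPM in WT trained mice and 11.1, 5.43 and 5.53 CPM in WT house controls. WT trained mice lay below WT house controls, and KO-labelled house control replicate 3 was close to the highest WT library. The WT value was -1.95 (SE 0.83, 3.88-fold lower after training, edgeR adjusted p = 0.502), and -0.18 (SE 0.70) with the leptomeningeal marker mean as a term. That mean was 4.97 to 5.12 in WT house controls and 2.89 to 4.68 in WT trained mice (log2 scale). The term and these groups therefore cannot be fully told apart. The authors' deposited table calls Col3a1 (-1.95, SE 0.46, adjusted p = 0.0437) and Col6a2 (-1.28, SE 0.31, adjusted p = 0.0479) lower in trained WT mice, where edgeR gave Col6a2 an SE of 0.81. Col1a1 and Col1a2, the chains of type I collagen, had 8.17, 3.13 and 9.23 CPM in WT trained mice against 29.98, 12.2 and 15.8 CPM in WT house controls for Col1a1, and 19.4, 5.94 and 23.4 CPM in WT trained mice against 46.2, 28.6 and 38.8 CPM in WT house controls for Col1a2. Neither pair of groups overlapped.

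Lower collagen and laminin values in WT trained mice came with lower values of several marker lists. All 17 leptomeningeal (median -1.12), all 17 choroid plexus (-0.96), all 8 striatum and septum (-1.60) and all 8 thalamus markers (-0.82) were negative. So were all 8 oligodendrocyte (-0.65), 7 of 8 astrocyte (-0.24), 6 of 8 microglia (-0.10) and 5 of 8 neocortex markers (-0.18). Higher were 6 of 7 CA1 pyramidal (0.07), 5 of 8 dentate granule (0.11) and 5 of 8 interneuron markers (0.02). None of these markers was called. The median of the 52 genes was -0.22 with the leptomeningeal mean as a term, -0.41 without the 3 libraries richest in choroid plexus markers, -0.49 without WT trained replicate 2 and -0.50 without WT house control replicate 3. Within replicates 1 and 2 it was -0.83. Leaving out the 3 choroid-rich libraries keeps WT house control replicate 1 alone in its group. The leptomeningeal mean was higher in every WT house control than in every WT trained library. The part of tissue makeup in these values was not tested.

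In KO-labelled mice training went with 37 of 52 negative values and a median of -0.22 (50.9% of all genes below 0, median -0.00), 0 called (0% of all genes) and 2 with an unadjusted p under 0.05, Lama4 and Lama2 (background 2.04% lower). Groups did not overlap for 5, all lower after training: Col11a2, Col2a1, Col5a3, Col6a5 and Lama3 (background 4.54%). DESeq2 called 0 of 51 (0.0449% of all genes), and 0 were called in the authors' deposited table (0.0716% of its genes). Within replicates 1 and 2 the median was -0.02, and without replicate 2 of both KO-labelled groups -0.49. It was -0.46 without KO-labelled trained replicate 2, -0.072 without KO-labelled trained replicate 1 and -0.086 without KO-labelled house control replicate 3. All 8 thalamus (median -0.58), all 8 oligodendrocyte (-0.54), all 8 astrocyte (-0.30), 7 of 8 microglia (-0.31), 9 of 12 endothelial (-0.16) and 7 of 11 mural markers (-0.05) were lower after training, while 15 of 17 choroid plexus (0.34) and 10 of 17 leptomeningeal markers (0.10) were higher. None of these markers was called, and their part in the collagen and laminin values was not tested. Col11a2, a fibril chain with a narrow range, was lower after training in both genotypes without overlap, at 24.1 to 28.03 CPM in KO-labelled trained mice against 29.8 to 30.7 CPM in KO-labelled house controls, and 21.8 to 30.6 CPM in WT trained mice against 31.3 to 32.04 CPM in WT house controls. Its value averaged over genotypes was -0.24 (SE 0.078, edgeR adjusted p = 0.414).

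Averaged over genotypes, 46 of 52 were lower after training (median -0.44, all genes -0.01 and 52.3% below 0), with 0 called (0% of all genes) and 12 at an unadjusted p under 0.05, all lower (background 6.59% lower). Lamb2 (-0.39, SE 0.12), Col15a1 (-0.41, SE 0.13), Lama3 (-0.42, SE 0.14) and Col11a2 followed Lama4 in order of p, each at an edgeR adjusted p of 0.414. The training effect was not shown to differ between genotypes for any of the 52, since 0 reached an unadjusted p under 0.05 in the interaction (background 1.5%) and 0 were called by edgeR (0% of all genes) or by DESeq2 (0% of all genes). The interaction was positive for 44 of 52 (48.6% of all genes), with a median of 0.42, and the median was -0.035 with the leptomeningeal mean as a term. It was 0.24 without WT house control replicate 3, likewise 0.24 without WT trained replicate 2, and 0.70 without WT trained replicate 3. Lama1 had the smallest p, at 1.20 (SE 0.62, unadjusted p = 0.0819, edgeR), where its WT values were 3.60, 2.37 and 5.06 CPM in WT trained mice and 10.7, 5.92 and 5.74 CPM in WT house controls.

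Genes that modify, bind or degrade these proteins were read from a list of 74, of which 71 were tested. Averaged over treatments 21 were higher and 50 lower in KO-labelled mice (median -0.13), and 1 was called (background 0.576%). That gene was Bmp1, the protease that trims the ends of fibrillar procollagens, at 40.8 ± 6.76 CPM in KO-labelled and 61.6 ± 7.04 CPM in WT mice (SD, n = 6 each; log2 fold change -0.59, SE 0.11, 1.51-fold lower, edgeR adjusted p = 0.0473). Every KO-labelled library, at 32.7 to 47.8 CPM, lay below every WT library, at 53.2 to 70.4 CPM. Bmp1 was 1 of 112 genes with this separation among the 15622 tested. The call ended without any 1 of 11 libraries, at an edgeR adjusted p of 0.0553 to 0.117, and held without WT house control replicate 1 (0.0474), with values of -0.63 to -0.50. It also ended with the leptomeningeal marker mean as a term (-0.53, edgeR adjusted p = 0.190) and with no filter on low counts (-0.59, 0.0511). The same was true within replicates 1 and 2 (-0.73, 0.386) and without replicate 2 of both KO-labelled groups (-0.45, 0.0618). Without the 3 libraries richest in choroid plexus markers, which leaves WT house control replicate 1 alone in its group, the value was -0.70. DESeq2 called Bmp1 (-0.59, adjusted p = 0.000184), where it called 5.04% of all genes. By edgeR the call held with median-of-ratios scaling (adjusted p = 0.0498) and with a filter at a mean of 1 CPM (0.0411). It held as well with the title-number run (0.0458) or the choroid plexus marker mean (0.0487) as a term. Next in order of p were Adgrg1, a collagen III receptor of brain (-0.17, SE 0.05), Agrn, the heparan sulfate proteoglycan agrin (0.32, SE 0.10), and Plod2, a collagen lysyl hydroxylase (-0.44, SE 0.14), at edgeR adjusted p of 0.156 to 0.197. In WT mice after training 17 of 71 were higher and 54 lower (median -0.34), with 0 called (0% of all genes). By kind, 14 of 16 receptors, 23 of 29 processing enzymes, 11 of 16 basement membrane partners and 6 of 10 proteases and inhibitors were lower.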

How the data were processed

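Polyadenylated RNA of dorsal hippocampus was sequenced in 12 libraries, 3 per group, each labelled as a separate sample. The authors deposited raw counts per gene symbol, and the submitters' processing notes list HTSeq 0.9.1, TopHat2 2.1.1, Bowtie2 2.3.4.2, DESeq2 1.18.1, cutadapt 1.18 and the build mm10. The strand setting for HTSeq was not given in the sources used here. Exons of 16 of the 55 genes overlap another annotated gene, and for 5 of these genes the other gene is in the count files (Tcfl5 for Col9a3, and Col4a1 with Col4a2 for each other). Reads shared between such genes cannot be told apart. The authors also deposited 4 tables whose columns, per the file headers, hold the mean signal over both groups, log2 values (a fold change with its error), a test score and p-values before and after adjustment.

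Counts were fitted in R 4.3.3 with edgeR 4.0.16: filterByExpr (minimum count 10, total 15) left 15622 genes, libraries were scaled by TMM, and a quasi-likelihood model with 4 group means was fitted to all 12 libraries (8 residual degrees of freedom). P-values were adjusted over all genes by Benjamini-Hochberg with a threshold of 0.05. The model was also run on simulated counts that had the same dispersion for every gene and no tissue differences between libraries. It was not tested on counts that vary between libraries as these do. No replicates of a group held identical counts (chi-square per degree of freedom 14.9 to 105). The labels give separate samples and do not state how the replicates were obtained, so p-values measure only the spread between these samples.

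Levels per length use the union of GENCODE M21 basic exons on the same build. Named genes were those called, the 5 smallest p per comparison, the 12 highest levels, the highest of each class and direct neighbours; other genes were named after their values were seen. The values of 1 member are not reported here, and it stays in the counts and medians. Members, classes and marker lists were chosen with earlier results of these data known. Alternatives were DESeq2 1.42.0, other scaling and filters, title-number run, marker terms and leaving out libraries.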

Additional observations from a re-analysis of the deposited data

How the results depend on the processing

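No alternative run with edgeR called any of the 52 genes in any comparison, including leaving out each library in turn. DESeq2 called 1 in WT mice after training, 2 between the genotypes on average and 1 for training on average, where it called 16, 725 and 69 genes in all. The median log2 fold change moved beyond the spread between replicates (SD 0.265) as follows. With the leptomeningeal marker mean as a term it was 0.14 for genotype in house controls, -0.22 for training in WT mice and -0.035 for the interaction. Without KO-labelled house control replicate 2 and trained replicate 2 it was -0.49 for training in KO-labelled mice, and without the 3 libraries richest in choroid plexus markers -0.41 for training in WT mice. The last setting leaves WT house control replicate 1 alone in its group. The leptomeningeal marker mean was higher in all WT house controls than in all other libraries. Leaving out 1 library gave -1.04 to -0.49 for training in WT mice and 0.24 to 0.70 for the interaction. Of these ends, -0.49 and 0.70 were moves beyond that spread, and -1.04 and 0.24 were moves within it. The same runs gave -0.24 to -0.03 for the genotypes on average, -0.46 to -0.07 for training in KO-labelled mice and -0.14 to 0.27 for genotype in trained mice. Those are moves within that spread that are large beside those medians. The cause was not tested.

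The mean genotype effect of 40 named genes gave 879 values under alternatives. Of these, 17 changed direction from a main value larger than its SE, 2 gained a DESeq2 call and 860 did neither. Any change of direction from a main value within its SE is counted among the 860. With the leptomeningeal term Col18a1 was at 0.089, Col4a3 at 0.15, Col4a4 at 0.13, Col4a5 at 0.10, Col8a1 at 1.00, Col8a2 at 0.55, Col9a3 at 0.11 and Lamc3 at 0.050. Without the 3 choroid-rich libraries Col18a1 was at 0.30, Col4a3 at 1.34, Col4a4 at 1.58, Col8a1 at 1.12, Col8a2 at 1.20 and Col9a3 at 1.02. All 3 are WT libraries. Without them WT house control replicate 1, at a choroid plexus marker sum of 285 CPM, was alone in its group. With the choroid plexus marker mean as a term Col4a4 was at 0.041 and Col8a2 at 0.18. Without both KO-labelled replicates 2 Col6a2 was at -0.12. The choroid plexus term and both sets of libraries left out were chosen after seeing the data. No paired analysis was possible because the labels give no replicate numbers, and those used here follow the order of deposit. Values ranged over at least 10-fold, or reached 0 in a library, in 20 of 52 genes, and the size of difference that this depth allows to be detected was not tested.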
